A study of Mus musculus with 6 samples.

Results

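The transcription factors that set up the germ layers and the trophectoderm were followed in mouse ES cells at an early stage of differentiation. They are 37 genes of a list chosen with earlier results of these data known. All 37 were measured, among 18193 genes that have a probe set with a single gene symbol. All samples came from the mouse ES cell line E14TG2a, kept on gelatin, where leukaemia inhibitory factor (LIF) prevents differentiation. The 3 undifferentiated samples had 1000 units per ml of LIF and were the FACS fraction negative for the surface glycoprotein 5T4, while the 3 differentiating samples were the 5T4-positive fraction after 3 days in which LIF was withheld. Culture and sort fraction change at the same time, so their parts cannot be told apart. Nothing read here states that the numbered replicates were separate cultures, and p-values measure only how far these samples spread, which could be technical. RNA was hybridised to Affymetrix mouse arrays. Each value is an RMA value on the log2 scale, so that a step of 1 is a 2-fold change. All arrays carried a high signal of Pou5f1, the gene of the pluripotency factor Oct4, between 11.39 and 12.26, which is characteristic of ES cells. Its signal was lower in differentiating cells, from 11.39 to 11.53 against 11.98 to 12.26 (log2 fold change -0.68, adjusted p = 0.0859 from limma).

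The first lineage decision of the mouse embryo separates the trophectoderm, which forms the placenta, from the inner cell mass. The inner cell mass then divides into epiblast, from which ES cells come, and primitive endoderm. At gastrulation, epiblast cells pass through the primitive streak to form mesoderm and definitive endoderm, while the rest form ectoderm, including the neural plate. Each step depends on DNA-binding proteins of a few families, such as the GATA zinc fingers, the Cdx, Msx and Lhx homeodomain proteins, the T-box factors, the basic helix-loop-helix (bHLH) factors and the AP-2 factors. In ES cells the genes of most of these factors are known to be held silent or nearly so, often at CpG-rich promoters marked by Polycomb proteins.

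The promoters of the members were first read as sequence, from 250 bases before to 50 bases after the transcription start in RefSeq (GRCm38.p6). Of the 37 members, 28 had such windows, 33 windows in all. The ratio of observed to expected CpG dinucleotides had a median of 0.698 over these windows, from 0.11 in an Elf5 window to 1.05 in the Isl1 window, against a median of 0.384 over all 32851 windows of the table. A ratio above 0.6 was found in 20 of the 33 windows (60.6%), against 35.8% of all windows. The windows of Neurod1, which passed the test below, and of Hhex, which did not, are shown. Among the members for which a sequence was at hand, they had the smallest adjusted p at the brightest probe set. Capitals mark the palindromic matches, on either strand, to CANNTG, the E-box that bHLH factors bind, and to GCCNNNGGC, the site type of AP-2 factors.
Neurod1 (chr2:79456587-79456886, minus strand): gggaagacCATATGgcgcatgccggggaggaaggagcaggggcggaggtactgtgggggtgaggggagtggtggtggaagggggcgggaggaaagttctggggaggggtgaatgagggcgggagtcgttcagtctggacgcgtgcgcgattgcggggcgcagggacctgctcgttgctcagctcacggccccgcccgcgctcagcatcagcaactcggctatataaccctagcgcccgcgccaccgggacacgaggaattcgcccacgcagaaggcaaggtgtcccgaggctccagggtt
Hhex (chr19:37434591-37434890, plus strand): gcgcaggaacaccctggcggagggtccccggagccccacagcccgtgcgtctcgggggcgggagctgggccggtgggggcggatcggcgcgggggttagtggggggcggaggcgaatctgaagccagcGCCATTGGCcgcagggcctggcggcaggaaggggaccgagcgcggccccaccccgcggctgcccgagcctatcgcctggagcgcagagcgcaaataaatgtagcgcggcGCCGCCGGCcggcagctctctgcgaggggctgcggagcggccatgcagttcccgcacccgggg
Both windows are rich in CpG, with ratios of 0.837 and 0.878. The Neurod1 window held 1 E-box and 0 AP-2 type matches, and the Hhex window held 2 AP-2 type matches and 0 E-boxes. Over all members, an AP-2 type match was found in 7 of 33 windows (21.2%, against 16.6% of all windows) and an E-box in 22 (66.7%, against 72.3%). The letters TTCNNNGAA, the site type of STAT factors through which LIF acts, were found in 0 of the 33 windows and in 8.30% of all windows. A match is a run of letters and no measured binding.

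Most lineage factors gave low signals in both groups. The table holds no detection calls, so the 38 olfactory receptor genes, which ES cells are not known to use, served as a reference for low values, and their mean RMA values lay between 3.28 and 5.73. Of the 37 members, 26 had a mean over the 6 arrays within or below this range, and 11 lay above it, whereas 61.2% of all genes did. The median level of the members was 5.14, against 6.63 over all genes. The upper end of the range is that of its highest gene, while the median of the 38 genes was 3.80, and 33 members lay above that median. Within the olfactory receptor range a signal cannot be separated from background by its level alone, and near background the measured fold can understate the change of a transcript. In descending order, the members above the range were Tfap2c (7.97), Hhex (7.29), Neurod1 (7.11), Pax6 (7.07), Gata2 (6.75), Hnf4a (6.55), Eomes (6.38), Msx1 (6.31), Nkx2-5 (6.27), Mesp1 (5.90) and Six3 (5.80). These are probe set signals, which depend on the probes as well as on the transcript, so their order is not one of transcript amounts.

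**Figure D1:**
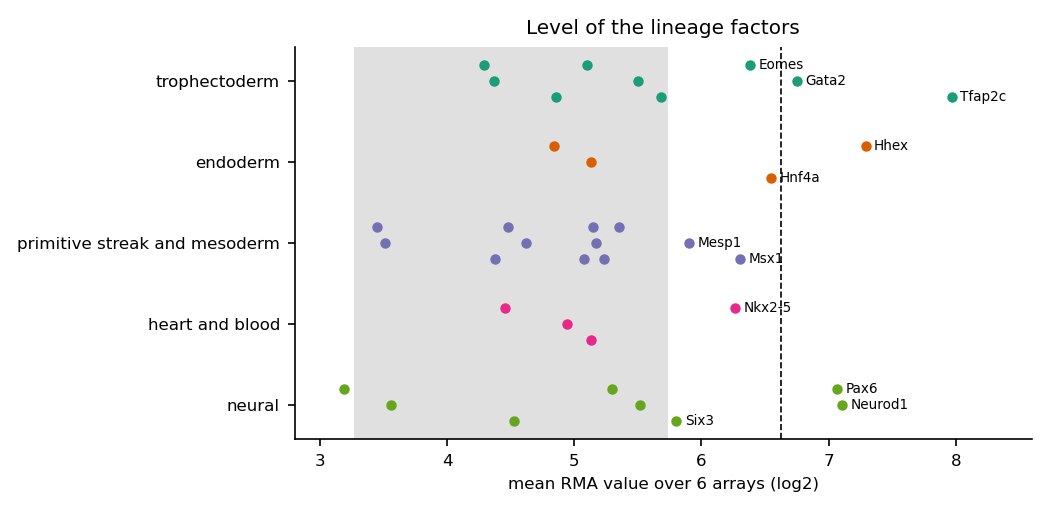
Mean RMA value over 6 arrays (log2, horizontal axis) of each of the 37 lineage factors, grouped by role; the vertical offset within a role only separates points. The grey band is the range of 38 olfactory receptor genes (3.28 to 5.73) and the dashed line the median of all genes (6.63), and the 11 members above the band carry their names.

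Across the comparison of differentiating against undifferentiated cells, 2 of the 37 members were lower, Tfap2c and Neurod1, and 0 were higher, at an adjusted p under 0.1 from limma over all 45037 probe sets tested. This is 5.41% of the members lower, where 1.45% of all genes were lower and 0.797% were higher by the same rule. Because the members were chosen with earlier results of these data known, these shares are no test of the list. At an unadjusted p under 0.05 there were 5 members, Tfap2c, Neurod1, Hhex, Cdx1 and Msx2, and each had a negative log2 fold change. These are 5 of 37, where 17.2% of all genes were under that p in either direction, so the count does not exceed the background. The median log2 fold change was -0.04 for the members and 0.02 for all genes. A negative value was found for 21 members (56.8%), against 46.4% of all genes. Undifferentiated and differentiating arrays were fully separated for 8 members (21.6%), against 23.5% of all genes, a share near the background. Of these, 7 were lower in differentiating cells and 1 was higher, where 12.8% and 10.7% of all genes were. The 95% interval of the log2 fold change lay within -1 and 1, less than a 2-fold change of signal, for 29 members (78.4%), against 83.1% of all genes. With 3 arrays in each group the smallest two-sided p of an exact permutation test is 0.1, so the single genes rest on the fit across all probe sets. Leaving out differentiating replicate 2, differentiating replicate 3 or undifferentiated replicate 3 left 0 members past the threshold, and at most 3 of all genes were then lower.

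**Figure D2:**
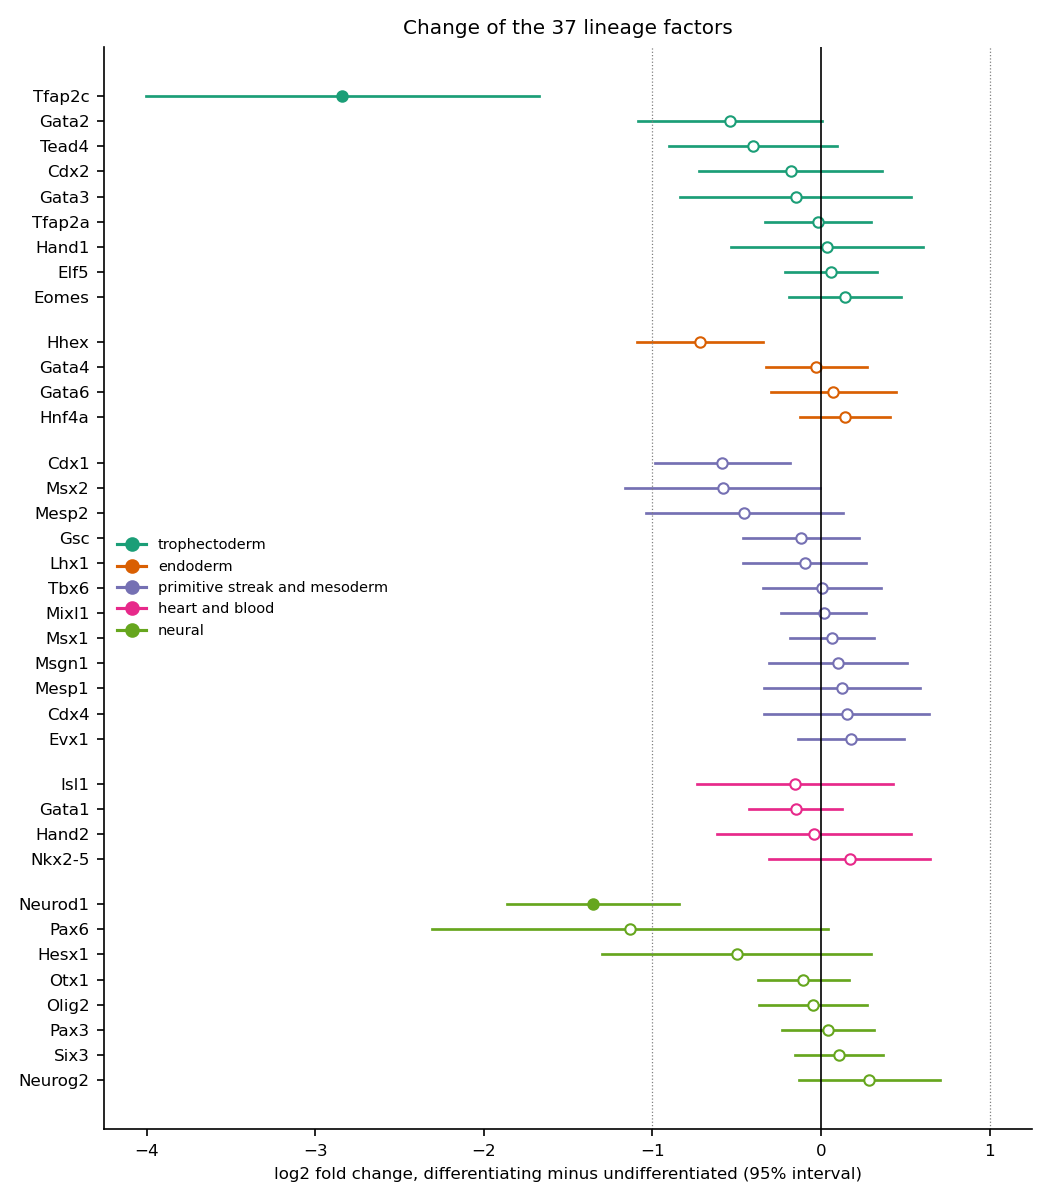
Difference of the group means in log2 units (horizontal axis, positive where differentiating cells are higher) for the 37 lineage factors, each at its brightest probe set, grouped by role, with the 95% interval from limma as a bar; filled points passed the threshold (adjusted p under 0.1) and dotted lines mark a 2-fold change. Tfap2c and Neurod1 are the filled points, and the intervals of 29 members lie between the dotted lines.

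Tfap2c was the brightest member and had the largest change among the 37. It encodes AP-2 gamma, a factor needed in the trophectoderm and in primordial germ cells and also used by ES cells. Its RMA value was 9.70, 9.10 and 9.36 in undifferentiated replicates 1 to 3 and 7.47, 6.77 and 5.4 in differentiating replicates 1 to 3. Every differentiating array lay below every undifferentiated array, by at least the gap from 9.10 to 7.47, and the differentiating arrays were spread over more than 2 units. The mean fell from 9.39 ± 0.30 (SD, n = 3) to 6.55 ± 1.06 (SD, n = 3), a 7.15-fold lower signal (log2 fold change -2.84 with a standard error of 0.49, limma adjusted p = 0.0818). In bulk samples, fewer cells with the transcript and less transcript per cell cannot be told apart. A dimmer Tfap2c probe set was 4.24-fold lower (log2 fold change -2.09, adjusted p = 0.04 from limma), with values from 6.99 to 7.55 against 4.79 to 5.48. The differentiating values of this probe set, and that of replicate 3 at the brightest, lie in the olfactory receptor range, so these folds can understate the change. The remaining probe set had a log2 fold change of -2.82 and missed the threshold (adjusted p = 0.104), with values from 8.18 to 8.63 against 4.30 to 6.84. The Tfap2c call at the brightest probe set did not hold without differentiating replicate 2 (adjusted p = 0.322), differentiating replicate 3 (0.196), undifferentiated replicate 1 (0.112) or undifferentiated replicate 3 (0.301), while the log2 fold change stayed between -3.30 and -2.26 under all alternatives run.

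Neurod1 encodes a bHLH factor of neuronal and endocrine differentiation. Its RMA value was 7.73, 7.40 and 8.22 in undifferentiated replicates 1 to 3 and 6.44, 6.58 and 6.29 in differentiating replicates 1 to 3. The groups did not overlap, and the differentiating arrays were close to each other. The mean fell from 7.78 ± 0.41 (SD, n = 3) to 6.43 ± 0.15 (SD, n = 3), a 2.55-fold lower signal (log2 fold change -1.35 with a standard error of 0.22, limma adjusted p = 0.0693). The other Neurod1 probe set was 3.20-fold lower (log2 fold change -1.68, adjusted p = 0.0421 from limma), from 7.59 to 8.06 in undifferentiated and from 5.93 to 6.46 in differentiating cells. Both probe sets thus passed, and the differentiating values stayed above the highest olfactory receptor gene (5.73). At the brightest probe set the call was lost without differentiating replicate 1 (adjusted p = 0.108), differentiating replicate 2 (0.299), differentiating replicate 3 (0.276) or undifferentiated replicate 3 (0.206) and with the replicate number as a block (0.107), with a log2 fold change between -1.54 and -1.13 under all alternatives run.

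**Figure D3:**
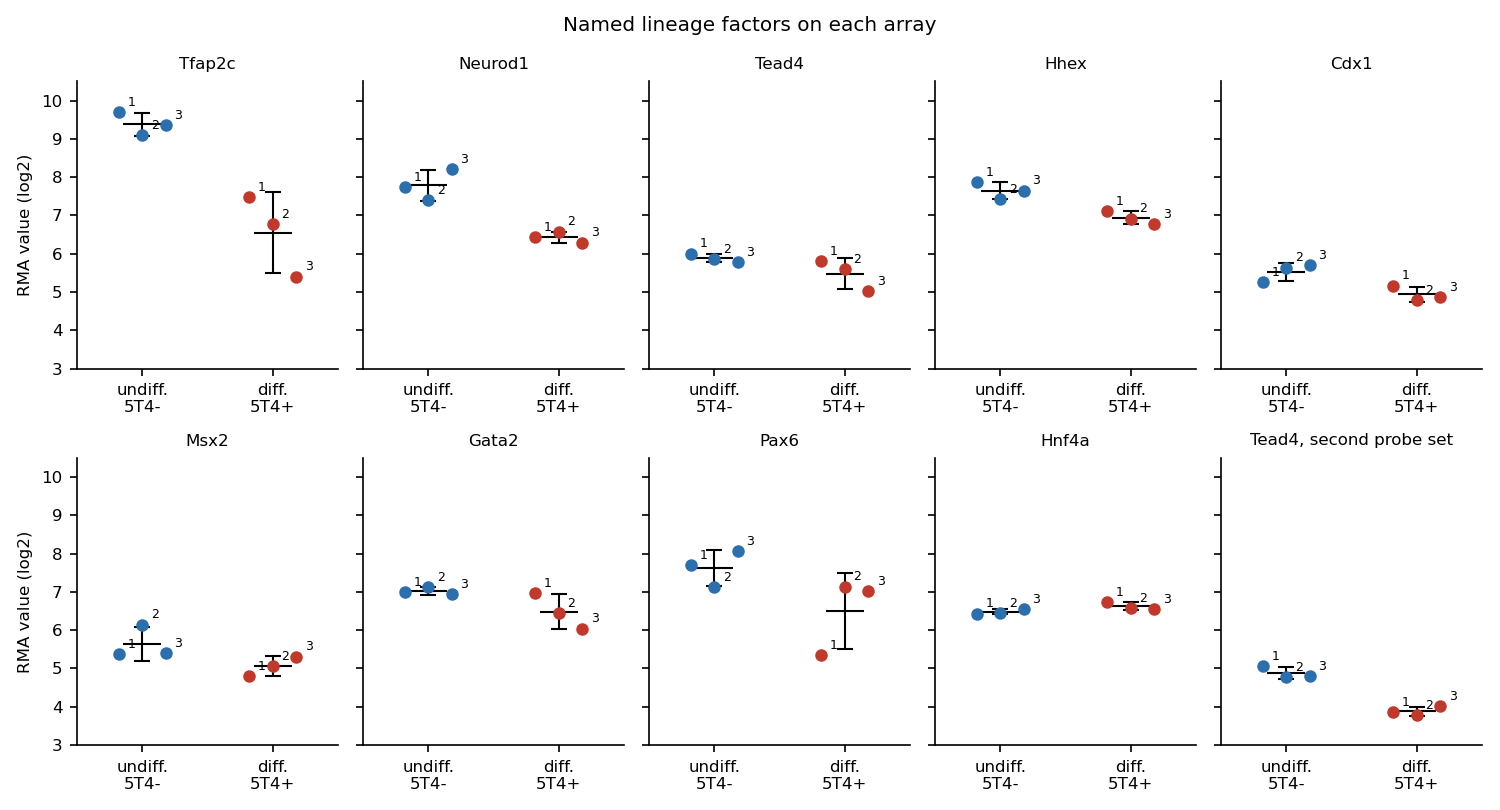
RMA value (log2, vertical axis, the same scale in all panels) of 9 lineage factors and of the dimmer Tead4 probe set by array; blue points are undifferentiated (5T4-negative) and red points differentiating (5T4-positive) samples, each with its replicate number, and the mean with its SD over 3 arrays is drawn in black. Tfap2c and Neurod1 separate the groups, and the low Pax6 value in differentiating cells is that of replicate 1 (5.35).

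Of the 9 trophectoderm factors, Tfap2c was lower, 0 were higher and 8 did not pass. Tead4, which encodes the TEAD factor that starts the trophectoderm programme upstream of Cdx2, had 2 probe sets that gave different results. At the brightest it was 6.01, 5.86 and 5.79 in undifferentiated and 5.81, 5.60 and 5.02 in differentiating replicates 1 to 3, so the groups overlapped (log2 fold change -0.40, adjusted p = 0.47 from limma). At the dimmer probe set it was 5.06, 4.77 and 4.81 against 3.86, 3.78 and 4.01, without overlap (log2 fold change -1.0 with a standard error of 0.13, limma adjusted p = 0.0503). All of these dimmer values lie in the olfactory receptor range. With Tead4 counted there, 3 members were lower at any probe set, where 1.87% of all genes were. Of the 68 probe sets of the members, 5 were lower, 0 were higher and 63 did not pass, against 1.03% of all probe sets lower and 0.573% higher.

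Gata2, a GATA factor of trophoblast giant cells and of blood progenitors, was 7.0, 7.13 and 6.94 in undifferentiated and 6.96, 6.45 and 6.04 in differentiating replicates 1 to 3. Differentiating replicate 1 lay among the undifferentiated arrays and the other differentiating arrays lay below them (log2 fold change -0.54, 95% interval -1.08 to 0.00, adjusted p = 0.368 from limma). Cdx2, the homeodomain factor that defines the trophectoderm, had a log2 fold change of -0.18 (interval at 95%, -0.72 to 0.36) at a mean level of 5.10. A dimmer Cdx2 probe set had a log2 fold change of the opposite sign, 0.19 (-0.40 to 0.77). Gata3, which acts beside Cdx2, had one of -0.15 (-0.84 to 0.53) at 4.37. Eomes, a T-box factor of trophoblast stem cells and of the primitive streak, had one of 0.14 (-0.19 to 0.47) at 6.38. Elf5, an ETS factor of trophoblast stem cells, and Hand1, a bHLH factor of giant cells, had values of 0.06 and 0.03. Tfap2a, the AP-2 alpha gene and closest in kind to Tfap2c among the members, gave a difference of -0.02 in log2 units (95% interval -0.33 to 0.29) at a level of 4.86, within the olfactory receptor range. The difference between Tfap2a and Tfap2c was not tested.

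Among the 4 endoderm factors none passed in limma, and 1, Hhex, had an unadjusted p under 0.05, which 17.2% of all genes had. Hhex encodes a homeodomain factor of the anterior visceral endoderm and the liver bud. It was 7.88, 7.43 and 7.65 in undifferentiated and 7.11, 6.92 and 6.77 in differentiating replicates 1 to 3. Every differentiating array lay below every undifferentiated array, but the difference missed the threshold (log2 fold change -0.72 with a standard error of 0.16, limma adjusted p = 0.12), and Hhex passed without undifferentiated replicate 2 (adjusted p = 0.0843) and under 3 other alternatives of the 14 run. Hnf4a, a nuclear receptor of visceral endoderm and liver, was 6.44, 6.45 and 6.55 in undifferentiated and 6.74, 6.57 and 6.55 in differentiating replicates 1 to 3. These values overlapped at 6.55 and gave the smallest change among the 6 brightest members (log2 fold change 0.14, 95% interval -0.13 to 0.41, adjusted p = 0.651 from limma). Gata6 and Gata4, the GATA factors that specify primitive endoderm, had log2 fold changes of 0.07 (95% interval -0.30 to 0.44) and -0.03 (-0.33 to 0.27) at levels of 5.13 and 4.84.

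None of the 12 factors of the primitive streak and mesoderm passed in limma, and 2 of them, Cdx1 and Msx2, had an unadjusted p under 0.05, a share near that of all genes (17.2%). Cdx1, a homeodomain gene of the streak that responds to Wnt and patterns the posterior body, was 5.25, 5.63 and 5.69 in undifferentiated and 5.16, 4.79 and 4.86 in differentiating replicates 1 to 3. The groups did not overlap, though undifferentiated replicate 1 and differentiating replicate 1 were close (log2 fold change -0.59, 95% interval -0.99 to -0.19, adjusted p = 0.201 from limma). Msx2, a homeodomain gene that responds to BMP, was 5.38, 6.15 and 5.4 in undifferentiated and 4.80, 5.06 and 5.31 in differentiating replicates 1 to 3. The difference rested largely on undifferentiated replicate 2. The log2 fold change was -0.58 (limma adjusted p = 0.359), but -0.33 (adjusted p = 0.503) when that array was left out. A second Msx2 probe set, at a level of 3.47 in the olfactory receptor range, had a log2 fold change of 0.06. Mesp2, a bHLH factor of somite segmentation, gave a difference of -0.45 in log2 units (95% interval -1.04 to 0.13).

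The other 9 streak and mesoderm factors had log2 fold changes from -0.12 in Gsc to 0.18 in Evx1. Mixl1, a homeodomain gene switched on in the streak, was between 5.08 and 5.24 on all 6 arrays (log2 fold change 0.01, 95% interval -0.24 to 0.27). Mesp1, a bHLH factor of the earliest cardiac mesoderm, had a log2 fold change of 0.12 (-0.34 to 0.59). Tbx6 and Msgn1, which specify paraxial mesoderm, had values of 0.01 and 0.10. Lhx1, a LIM homeodomain factor of the organizer, had a log2 fold change of -0.10, Msx1 had 0.06 and Cdx4 had 0.15. The Gsc and Cdx4 probe sets, with mean levels of 3.51 and 3.45, were at the 10.3rd and the 8.95th percentile of all probe sets.

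The 4 factors of heart and blood did not pass in limma, and 0 of them had an unadjusted p under 0.05. For Gata1, the GATA factor of red blood cells, the log2 fold change was -0.15 (95% interval -0.43 to 0.13). Nkx2-5, the cardiac homeodomain gene, had 0.17 (-0.31 to 0.65), with differentiating replicate 1 at 6.77 and the other 5 arrays between 6.02 and 6.33. Isl1, of the second heart field and motor neurons, had -0.16 and Hand2, a bHLH factor of the heart and limb, had -0.04. In both, differentiating replicate 1 was the highest of the 6 arrays, at 5.42 and 4.97.

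Of the 8 neural factors, Neurod1 was lower and 7 did not pass. Pax6, a paired box factor of the neural plate and eye, was 7.70, 7.13 and 8.07 in undifferentiated and 5.35, 7.14 and 7.01 in differentiating replicates 1 to 3. The groups overlapped, and the low value of differentiating replicate 1 set much of the mean difference (log2 fold change -1.13, 95% interval -2.31 to 0.04, adjusted p = 0.384 from limma). Without that array the log2 fold change was -0.56 (adjusted p = 0.487). A dimmer Pax6 probe set had the same array lowest at 5.19, with 5.53 to 6.82 on the others (log2 fold change -0.73, adjusted p = 0.359). Its 3 remaining probe sets, all with means under 4.84 in both groups, had log2 fold changes from -0.39 to 0.13.

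Hesx1, a homeodomain gene of the anterior neural plate, was 6.54 in undifferentiated replicate 1 and between 4.97 and 5.58 on the other arrays (log2 fold change -0.50, 95% interval -1.30 to 0.30). Neurog2, a proneural bHLH gene, had the largest positive value of the 37 members, 0.29 (-0.13 to 0.70, adjusted p = 0.544 from limma). At the brightest probe sets, Six3, of the forebrain and eye, was the only member whose differentiating arrays all lay above the undifferentiated ones. It ranged from 5.79 to 5.98 against 5.73 to 5.78, a log2 fold change of 0.11 (adjusted p = 0.73). Its dimmer probe sets had log2 fold changes of 0.28 (adjusted p = 0.343 from limma), also without overlap, and -0.08. A dimmer Tfap2a probe set was also separated in this direction (log2 fold change 0.12), and another Tfap2a probe set in the opposite direction (-0.18). Dimmer probe sets of Gata4 (-0.18), Hand1 (-0.10) and Isl1 (-0.29) were separated with the differentiating arrays lower, and none of these passed. Pax3 (0.04), Olig2 (-0.05) and Otx1 (-0.11), factors of the dorsal neural tube, the motor neuron domain and the forebrain, were at levels of 5.30, 3.19 and 3.56.

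**Figure D4:**
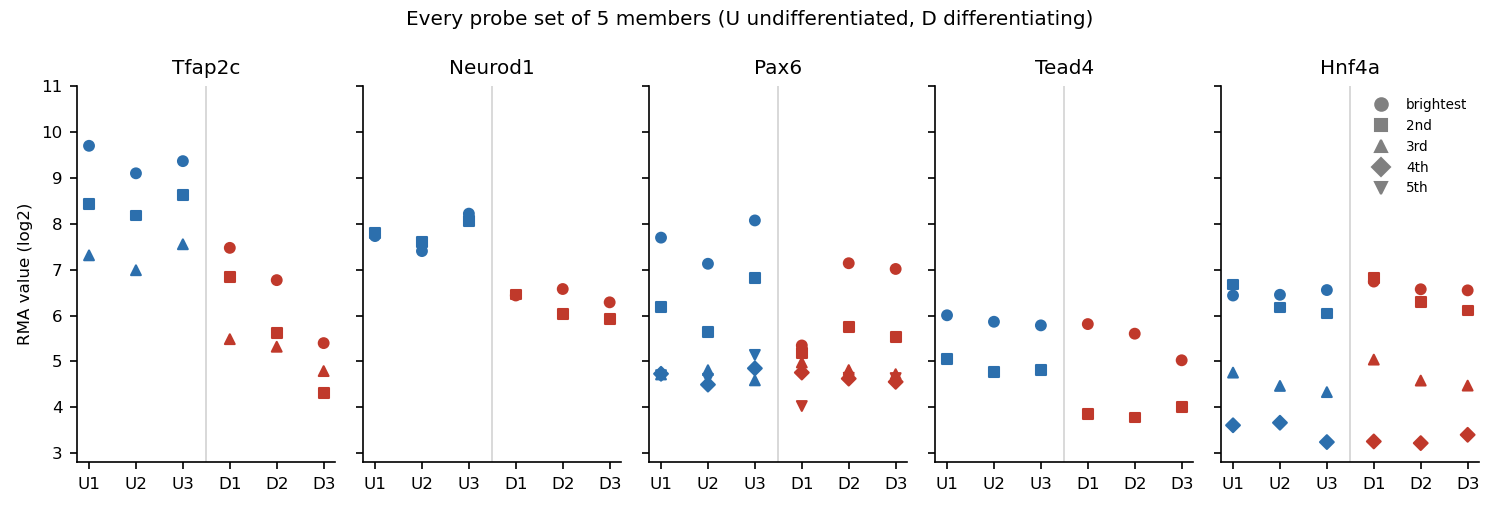
RMA value (log2, vertical axis) of every probe set of Tfap2c, Neurod1, Pax6, Tead4 and Hnf4a on each array, undifferentiated (U) in blue and differentiating (D) in red; marker shapes rank the probe sets of a gene by mean signal. All 3 Tfap2c and both Neurod1 probe sets are lower on every differentiating array, and the Pax6 probe sets differ from each other.

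The arrays of a group were not alike for these genes. Differentiating replicate 1 was the highest of its group for 26 of the 37 members (70.3%). It had a lower quartile of 4.26 against 4.07 to 4.10 on the other arrays, and among the 6407 genes between the lowest member and the median probe set it was the highest of its group for 69.5%. For Gata2, Hand1, Hand2, Isl1, Nkx2-5 and Tfap2c it lay more than 0.5 above the next array of its group. Differences of this array were not confined to low values. Among pluripotency genes, Klf4 (8.17, 6.24 and 5.50 in differentiating replicates 1 to 3) and Zfp42 (11.01, 9.43 and 8.69) were highest there. Pou5f1 (11.39, 11.53 and 11.45) and Nanog (11.28, 11.78 and 11.44) were lowest there. What part these differences had in the results was not tested beyond leaving the array out. Without it 1 member was lower (Tfap2c, log2 fold change -3.30) and 0 were higher, where 291 of all genes (1.6%) were lower and 276 were higher. At the brightest probe sets, undifferentiated replicate 2 lay more than 0.5 above the other undifferentiated arrays for 3 members. They were Cdx2 (5.69 against 4.96 and 4.91), Gata3 (5.13 against 3.96 and 4.24) and Msx2. These Cdx2 and Gata3 values all lie in the olfactory receptor range. Dimmer probe sets of Cdx2 (4.42, 4.74 and 4.78 in undifferentiated replicates 1 to 3) and Msx2 (3.49, 3.45 and 3.39) were not highest in undifferentiated replicate 2. These values lie in the olfactory receptor range too. In the same array the trophectoderm and simple epithelium keratins Krt8 and Krt18, looked at after the values were seen, were at 12.54 and 12.66, against 8.33 and 9.64 and against 8.94 and 9.89 in the other undifferentiated arrays, and between 11.01 and 12.49 in the differentiating ones. The list of trophoblast genes was mixed, as this array was the highest undifferentiated array for 9 of its 18 genes and the lowest for 6. Over all genes this array was the highest of its group for 26.2% and the lowest for 38.0%. Genes of other lineages were high there too, such as Actc1 (8.56 against 5.39 and 6.19) and Dab2 (7.45 against 5.63 and 5.94). The part of these differences in the results was not tested. Without this array 3 members were lower, Hhex, Tfap2c and Neurod1, and 0 were higher, where 421 of all genes (2.31%) were lower and 430 were higher. The median SD within a group was 0.17 in differentiating and 0.18 in undifferentiated cells for the members and 0.18 in both for all genes.

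**Figure D5:**
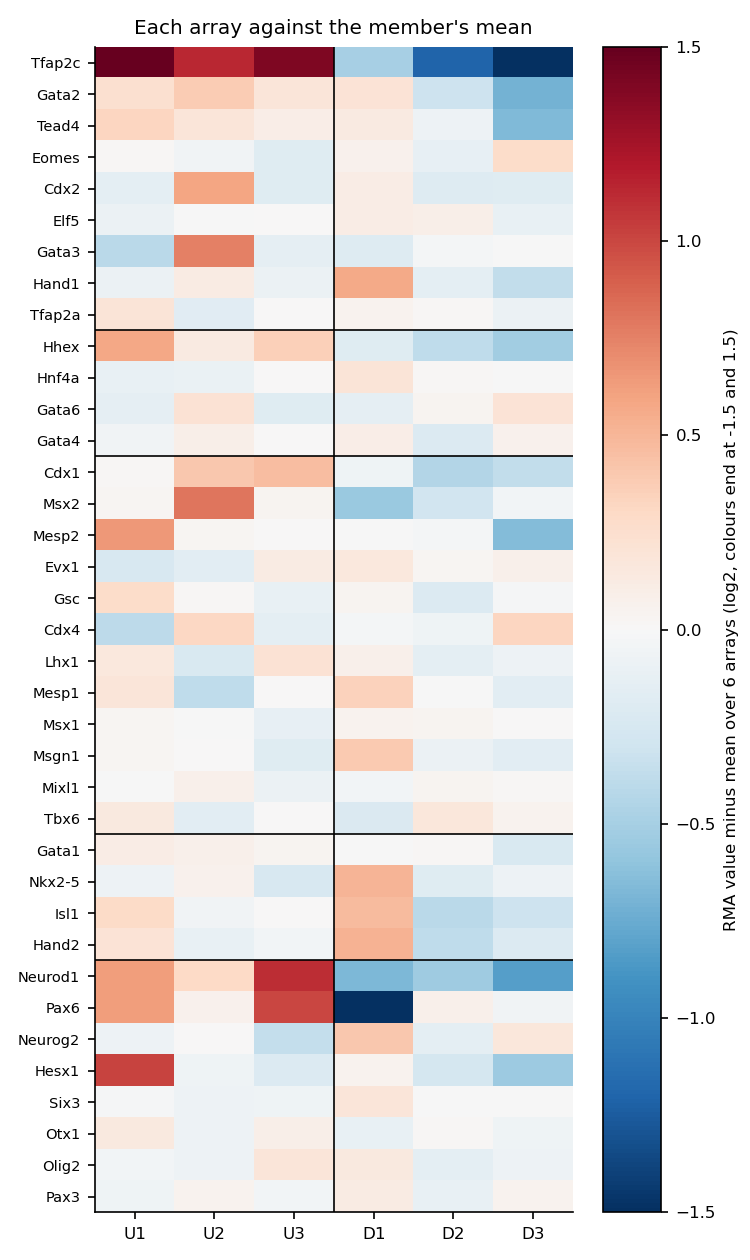
RMA value of each lineage factor on each array minus its mean over the 6 arrays (log2, colour scale, ended at -1.5 and 1.5), undifferentiated U1 to U3 and differentiating D1 to D3 in columns; horizontal lines part the roles. Tfap2c and Neurod1 change with the group, Cdx2, Gata3 and Msx2 stand out in U2, Hesx1 in U1, and Hand1, Hand2, Isl1 and Nkx2-5 in D1.

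Other genes of the same programmes were counted beside the members. Of 18 measured trophoblast genes 0 passed in limma (4 at an unadjusted p under 0.05, beside 17.2% of all genes here and for the lists that follow), with a median log2 fold change of -0.04. The homeobox genes Rhox6 and Rhox9 came closest (-1.22, adjusted p = 0.166, and -0.66, adjusted p = 0.225). Of 18 genes of primitive and visceral endoderm 0 passed (6 at an unadjusted p under 0.05, median 0.22). Dab2, an endocytic adaptor of the primitive endoderm, differed by 1.96 in log2 units (adjusted p = 0.141) and Pdgfra, a receptor that marks primitive endoderm and mesoderm and stands in this list and the next, by 0.53 (adjusted p = 0.152).

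Of 20 genes of the primitive streak and mesoderm 0 passed (4 at an unadjusted p under 0.05, median 0.13), and Fgf8, a growth factor of the streak, came closest (1.73, adjusted p = 0.122). Of 16 heart and blood genes 0 passed (3 at an unadjusted p under 0.05, median 0.06), with the cardiac actin gene Actc1 at 2.38 (adjusted p = 0.228) and Runx1, of blood stem cells, at -0.43 (adjusted p = 0.24). Of 22 neural genes, 2 were higher, 2 were lower and 18 did not pass (9 at an unadjusted p under 0.05, median 0.14). Of all genes, 0.797% were higher and 1.45% lower at the adjusted threshold. The zinc finger genes Zfp521 (2.17, adjusted p = 0.0887 from limma) and Zic2 (0.91, adjusted p = 0.0897) were higher. The midbrain homeobox gene En2 (-1.5, adjusted p = 0.0377) and Tubb3 (-1.30, adjusted p = 0.0897), which encodes a neuronal tubulin, were lower. All 4 lost their call without differentiating replicate 2, when 0 of all genes passed.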

How the data were processed

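The authors ran RMA from the affy library (version not given in the sources used here), that is background correction, quantile normalization and a summary per probe set. Each array's deposited log2 values were used as they are. The table has 45101 probe sets, of which 64 are array controls and stayed out of the fit. GEO's platform annotation gives 1 symbol to 34945 probe sets, and 34741 of these were looked up in RefSeq (0 symbols changed). A gene's value is that of its probe set of highest mean over 6 arrays.

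The comparison used lmFit and eBayes of limma 3.58.1 (R 4.3.3; the prior had 2.93 degrees of freedom), with Benjamini-Hochberg adjustment over all 45037 probe sets and an adjusted p under 0.1. The methods pair that threshold with a log2 fold change of at least 1, which was not required here and was run as an alternative. The members called were 2 lower and 0 higher with it too, and the share of all genes with it is not given here. No depth applies to arrays, and their number limits the precision. The members and lists were chosen with earlier results of these data known. Values on every array are given for Tfap2c, Neurod1, members with a passing probe set, the 8 of smallest adjusted p and the 6 brightest. Alternatives were a replicate block, other normalizations, variance priors, array weights, filters and thresholds, and each array left out.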

Additional observations from a re-analysis of the deposited data

How the results depend on the processing

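The count of 0 members higher held under all alternatives run, and the directions of the 9 members with values on every array held under the alternatives run at the brightest or the averaged probe set. Single dimmer probe sets of Msx2, Pax6 and Hnf4a had the opposite sign (0.06, 0.13 and -0.21). The count of members lower, 2, was 1 with the replicate number as a block, where 1.28% of all genes were lower. At an adjusted p under 0.05 from limma the count was 0, and the share of all genes at that bound is not given here. The count was 4 with the probe sets of a gene averaged (2.39% of all genes) and 5 with array weights (9.67% of all genes). It ranged from 0 to 3 when each array was left out, with 0 to 2.31% of all genes lower. The count of members whose groups did not overlap, 8, ranged from 9 to 14 when an array was left out, since fewer arrays separate more easily. The median log2 fold change, -0.04, was -0.17 with the dimmer probe sets left out, which kept 12 members, and -0.14 with array weights, which gave differentiating replicate 2 a weight of 5.11 and differentiating replicate 1 one of 0.298. It ranged from -0.09 to -0.00497 over the arrays left out.

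The replicate numbers were not taken as pairs, and the correlations below cannot settle whether they pair the samples. Deviations from the group means correlated by 0.205, -0.11 and 0.115 between samples numbered 1, 2 and 3, and not every sample correlated best with its own number. Signals of 26 of the 37 members lie in the olfactory receptor range or, for Olig2, below it, which limits what these arrays can show of them.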

Other observations

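A list of Polycomb genes, whose proteins are known to silence lineage factors in ES cells, also held Kdm6a and Kdm6b, which encode demethylases that remove the Polycomb mark. Of its 18 genes, 1 was lower, 0 were higher and 17 did not pass, with a median log2 fold change of -0.07. The gene that passed was Eed, which encodes the subunit that reads the repressive histone mark. It was 11.64, 12.06 and 12.05 in undifferentiated and 10.67, 10.77 and 10.81 in differentiating replicates 1 to 3, without overlap (log2 fold change -1.16, adjusted p = 0.0483 from limma, where 1.45% of all genes were lower). Ezh2 and Suz12, the other core subunits of that complex, had log2 fold changes of -0.37 (adjusted p = 0.295) and -0.04 (adjusted p = 0.947). Without differentiating replicate 2, 0 of all genes passed, Eed among those lost.

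Of 10 fibroblast genes, measured as markers of another cell type, 0 passed in limma and 2 had an unadjusted p under 0.05 (17.2% of all genes had), with levels from 3.62 to 7.52 and a median log2 fold change of 0.21. The matrix genes Dcn (0.66, adjusted p = 0.132) and Postn (0.43, adjusted p = 0.287) came closest.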
